A study of Sus scrofa with 18 samples.

Results

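The myometrium is mostly smooth muscle, but interstitial cells lie between the muscle bundles and mural cells wrap the vessels. The histone marks H3K4me3 and H3K27ac were examined at 9 genes used to recognise these cells, namely *KIT*, *KITLG*, *ANO1*, *PDGFRA*, *PDGFRB*, *CSPG4*, *RGS5*, *NOTCH3* and *CD34*. They are 9 of the 28210 RefSeq genes placed on the chromosomes of the pig assembly Sscrofa11.1, they were listed by name, and all 9 were found. A peak was assigned to a gene when at least 1 bp of it lay in the gene or in the 3 kb on either side.

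The samples came from the mesometrial side of the uterus of Yorkshire gilts. GD15M_CM is the inner circular muscle and GD15M_LM the outer longitudinal muscle on day 15 of pregnancy, and CD15M_CM is the circular muscle on day 15 of the estrous cycle, so no longitudinal muscle of cyclic gilts is among these groups. Each group had 2 gilts, with libraries for H3K4me3, H3K27ac and an IgG control from each, 18 libraries in all. The libraries were made with CUT&Tag, in which an antibody guides a protein A-Tn5 fusion that cuts the DNA beside the marked nucleosomes. Nuclei were taken from pieces of the muscle layers and no sorting of cells is described, so a peak cannot be traced to a cell type, and fewer cells of a type and less of the mark per cell cannot be told apart.

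The authors pooled both gilts of a group before calling peaks, which gave 6 lists, 1 per mark and group. From these lists no value per gilt, no error and no test between the groups can therefore be given, and every difference below is between pooled lists. The paper also tested regions for differences between groups with DiffBind, and that test is not part of the lists. The lists held 33599, 31910 and 36331 H3K4me3 peaks in GD15M_CM, GD15M_LM and CD15M_CM, and 79877, 57010 and 82037 H3K27ac peaks. The number of reads behind each peak is not part of the lists. Each peak has a fold enrichment over the IgG control. Since lists of different depth do not share a scale for this ratio, a peak was also given a percentile, from 0 to 100, which orders the peaks of 1 list by this ratio, and a gene without a peak had 0. The median H3K27ac peak had a fold enrichment of only 3.49, 3.79 and 3.53 in the same order, so that a small step in this ratio around the median is a large step in percentile. A difference of at least 10 percentile points was the size used to call a gene higher in a list.

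H3K4me3 is placed at the promoters of transcribed genes, and H3K27ac at active promoters and enhancers. *KIT* is the receptor tyrosine kinase of stem cell factor, which *KITLG* encodes, and with the calcium-activated chloride channel *ANO1* it marks the interstitial cells of Cajal, the pacemaker cells of gut muscle. *KIT*-positive interstitial cells and telocytes, slender cells that carry *PDGFRA* and *CD34*, have also been described in the uterus. Pericytes and vascular smooth muscle cells depend on *PDGFRB* and *NOTCH3* signalling and carry the proteoglycan *CSPG4* (also named NG2) and the G protein regulator *RGS5*. None of these genes is restricted to 1 cell type: mast cells and melanocytes express *KIT*, and endothelium expresses *CD34*.

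All 9 genes had an H3K4me3 peak in every list, and 8, 8 and 9 had an H3K27ac peak in GD15M_CM, GD15M_LM and CD15M_CM. Of all RefSeq genes, 60.0%, 61.0% and 61.7% had an H3K4me3 peak in the same window, and 62.9%, 61.3% and 64.9% an H3K27ac peak. All 9 genes were at least 20 kb long, and of the 12155 genes of that length 75.0%, 76.3% and 76.6% had an H3K4me3 peak and 77.1%, 76.6% and 80.3% an H3K27ac peak. The gene without H3K27ac in both pregnant layers was *RGS5*.

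The strongest peak of a gene was mostly of middle rank. For H3K4me3, the median percentile of the 9 genes was 68.8 in GD15M_CM, 67.4 in GD15M_LM and 77.3 in CD15M_CM, below the 80.9, 79.4 and 81.8 of all genes with a peak. For H3K27ac it was 56.1, 68.1 and 77.1, with *RGS5* counted as 0 in both pregnant lists, and 58.9, 73.3 and 77.1 over the genes with a peak. All genes with a peak had medians of 86.9, 83.2 and 85.2. Only *CSPG4* and *KITLG* passed the 90th percentile for H3K4me3, and only *CSPG4* and *PDGFRB* for H3K27ac.

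**Figure D1:**
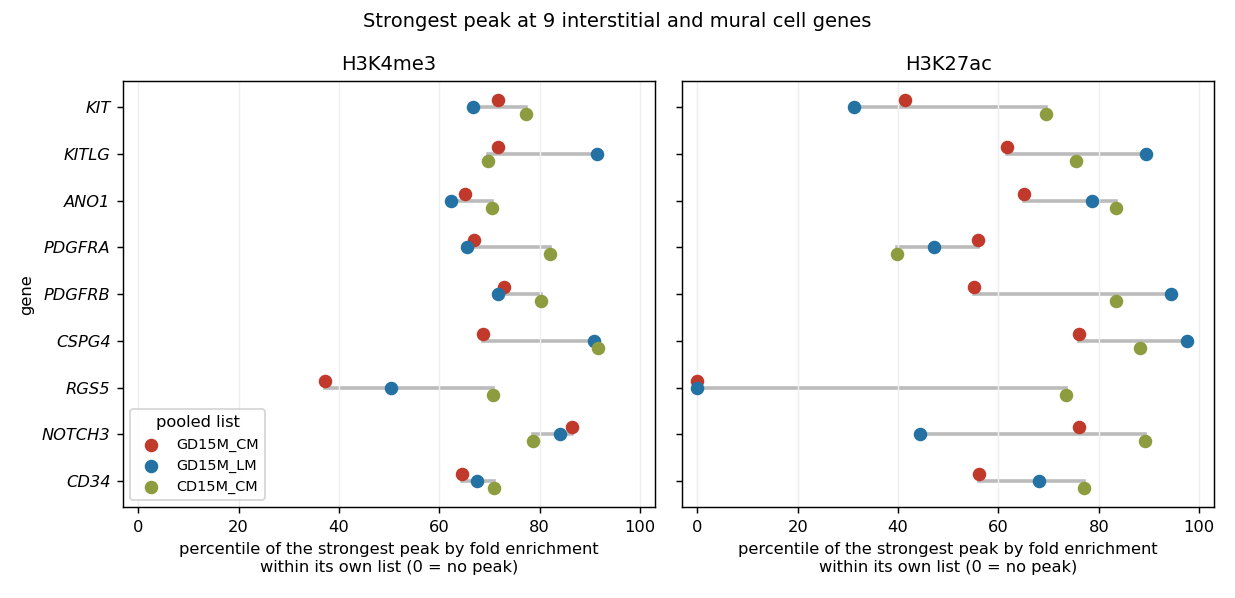
Percentile of the strongest peak of each of the 9 genes (x axis, order by fold enrichment among the peaks of 1 list, 0 where there was no peak), for H3K4me3 on the left and H3K27ac on the right. Each point is 1 pooled list of 2 gilts and has no error bar, and the grey bar spans the 3 lists. *RGS5* lay lowest for H3K4me3 in GD15M_CM at 37.2 and had H3K27ac only in CD15M_CM at 73.4.

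The receptor *KIT* (chromosome 8, 41402334 to 41492306) carried 1 H3K4me3 peak per list, at the lower-coordinate end of the gene, between 41401462 and 41404898 over the lists. Strand was not available here, so the end that holds the start site could not be told from the other end, and the ends are called the low and the high end. The fold enrichment was 11.9 in GD15M_CM, 12.9 in GD15M_LM and 16.9 in CD15M_CM, at percentiles of 71.7, 66.7 and 77.3. CD15M_CM was highest, but its lead of 5.59 points over GD15M_CM became −1.79 points when peaks were ranked by −log10 p instead of fold enrichment. The peaks were of like length, 3131 to 3408 bp. H3K27ac at the same end was weaker. The best of its peaks over the H3K4me3 peak had a fold enrichment of 3.28, 2.70 and 4.09, at percentiles of 41.5, 8.94 and 69.6. In GD15M_LM the strongest H3K27ac peak of the gene was a 304 bp peak at the high end, with a fold enrichment of 3.31 at a percentile of 31.3. For H3K27ac CD15M_CM lay 38.3 points above GD15M_LM and 28.1 points above GD15M_CM. By −log10 p these differences were 38.4 and 6.56 points, so that only the first still reached 10. No H3K27ac peak lay in the interior of *KIT* in any list. *KIT* is also the locus of dominant white coat colour in pigs, and white breeds are known to carry extra copies of it. Copy number was not analysed here.

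Its ligand gene *KITLG* (chromosome 5, 94016992 to 94110219) had the clearest signal in longitudinal muscle. The H3K4me3 peak at the low end had a fold enrichment of 11.8 in GD15M_CM, 26.7 in GD15M_LM and 12.4 in CD15M_CM, at percentiles of 71.6, 91.5 and 69.7. GD15M_LM stood apart from both circular lists, which lay close together, while the peak had nearly the same length in all 3 lists, 3095, 3237 and 3466 bp. Ranked by −log10 p, the lead of GD15M_LM shrank from 19.9 to 8.33 points over GD15M_CM and the difference of CD15M_CM minus GD15M_LM shrank from −21.8 to −6.59 points. GD15M_LM was the top list for H3K27ac over this peak as well. Its fold enrichment was 2.74, 6.20 and 4.35, at percentiles of 17.1, 89.4 and 75.5. GD15M_CM was the exception in a further way, as it had 4 H3K27ac peaks inside the gene, 41.7 to 85.6 kb from the low end. CD15M_CM had 1 such peak, of 200 bp, and GD15M_LM had none.

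The channel gene *ANO1* (chromosome 2, 3202269 to 3373409) differed from the other genes in where its H3K4me3 lay. Its strongest H3K4me3 peak was inside the gene, between 3285218 and 3287907 over the lists, about 84.2 kb from the low end, and no H3K4me3 peak lay within 3 kb of either end. The fold enrichment of this peak was 8.77 in GD15M_CM, 10.4 in GD15M_LM and 12.9 in CD15M_CM, at percentiles of 65.0, 62.3 and 70.4, which are within 10 points of each other. CD15M_CM had 3 further, weaker H3K4me3 peaks in the gene. *ANO1* also held many H3K27ac peaks, namely 21, 13 and 18 in GD15M_CM, GD15M_LM and CD15M_CM, of which most lay in the lower-coordinate part of the gene body. The strongest had a fold enrichment of 3.90, 5.11 and 4.81, at percentiles of 65.1, 78.6 and 83.5. In GD15M_CM it lay just beyond the high end, hardly stronger than a peak of 3.89 inside the gene, and in the other lists 50.5 and 48.8 kb inside the gene. *FADD* lies only 7.45 kb below *ANO1*, and a window of 10 kb instead of 3 kb moved the H3K4me3 percentile of *ANO1* in GD15M_CM from 65.0 to 93.6.

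*PDGFRA* (chromosome 8, 40966568 to 41021440), the receptor that marks fibroblast-like interstitial cells, had the longest H3K4me3 peak of the 9 genes in every list. The peak covered the low end over 7047, 7201 and 7107 bp in GD15M_CM, GD15M_LM and CD15M_CM, which put it at the 99.2, 98.8 and 98.8 percentile of its list by length. Its fold enrichment was 9.68, 12.2 and 19.6, at percentiles of 67.0, 65.5 and 82.1. The cyclic muscle was thus 15.1 points above GD15M_CM and 16.6 above GD15M_LM, which became 8.71 and 9.31 points when peaks were ranked by −log10 p. H3K27ac was sparse over this long peak and covered 17.1%, 32.1% and 52.7% of it. The strongest H3K27ac peak of the gene had a fold enrichment of 3.62, 3.72 and 3.27, at percentiles of 55.9, 47.1 and 39.7, and lay at a different place in each list. *PDGFRA* was the only one of the 9 genes whose H3K27ac percentile was at least 10 points higher in GD15M_CM than in CD15M_CM. This difference of CD15M_CM minus GD15M_CM, −16.2 points, was −1.92 points by −log10 p.

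The mural receptor gene *PDGFRB* (chromosome 2, 151155753 to 151192818) had its main H3K4me3 peak at the high end. The peak had a fold enrichment of 12.4 in GD15M_CM, 15.5 in GD15M_LM and 18.6 in CD15M_CM, at percentiles of 72.8, 71.7 and 80.2. These lie within 10 points of each other, but the peak was 6118 bp long in GD15M_LM against 4136 bp in GD15M_CM and 4899 bp in CD15M_CM. GD15M_LM also had 4 weaker H3K4me3 peaks inside the gene and CD15M_CM had 4, with 1 more beyond the high end, whereas GD15M_CM had none. H3K27ac spread far beyond this peak. The gene and its 3 kb flanks held 16, 16 and 13 H3K27ac peaks that covered 43.0%, 52.8% and 57.6% of the window in GD15M_CM, GD15M_LM and CD15M_CM.

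The strongest H3K27ac of *PDGFRB* was inside the gene, some 7.28 to 10.6 kb from the high end. Its fold enrichment was 3.59 in GD15M_CM, 7.07 in GD15M_LM and 4.81 in CD15M_CM, at percentiles of 55.1, 94.3 and 83.5. GD15M_LM was highest and GD15M_CM lowest, by 39.2 points, and CD15M_CM was 28.3 points above GD15M_CM. In CD15M_CM this was a single peak of 6346 bp from 151180236 to 151186581, and the same stretch was called as 4 peaks in GD15M_CM, where the widest had a fold enrichment of 3.46. Over the H3K4me3 peak at the high end, H3K27ac had percentiles of 49.0, 77.9 and 77.4, so GD15M_CM was lowest there too. *CSF1R*, a macrophage gene, lies 25.4 kb below *PDGFRB* and outside the window.

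*CSPG4* (chromosome 7, 57949182 to 57988602) had the highest H3K27ac percentile of the 9 genes in GD15M_LM and, just above *NOTCH3*, in GD15M_CM, and the highest H3K4me3 percentile in CD15M_CM. The H3K4me3 peak at its low end had a fold enrichment of 10.6 in GD15M_CM, 26.1 in GD15M_LM and 26.1 in CD15M_CM, at percentiles of 68.8, 90.7 and 91.6. GD15M_LM and CD15M_CM were nearly equal, and GD15M_CM was 21.9 and 22.8 points lower. The peak was 2446, 6282 and 3208 bp long, and GD15M_LM had 8 further H3K4me3 peaks in the window against 1 in GD15M_CM and 3 in CD15M_CM. The H3K4me3 peaks covered 6.74%, 21.5% and 11.5% of the window.

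H3K27ac was as widespread at *CSPG4* as at *PDGFRB*. There were 19, 20 and 15 peaks that covered 46.5%, 60.1% and 66.2% of the window in GD15M_CM, GD15M_LM and CD15M_CM. The fold enrichment of the strongest was 4.35, 8.20 and 5.20, at percentiles of 76.1, 97.6 and 88.2. These 3 peaks were at different places, at the low end in GD15M_CM and 6.28 and 12.6 kb inside the gene in GD15M_LM and CD15M_CM. At the place of the GD15M_LM peak, 57954868 to 57956047, the overlapping peak had a fold enrichment of 4.26 in GD15M_CM and 4.88 in CD15M_CM. The percentiles of these peaks were 74.7 and 84.7. GD15M_LM was thus highest there, but the place was chosen as that of its own strongest peak, which favours it. By −log10 p, GD15M_LM led GD15M_CM by 7.30 instead of 21.5 points and CD15M_CM led it by 2.79 instead of 12.0 points.

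**Figure D2:**
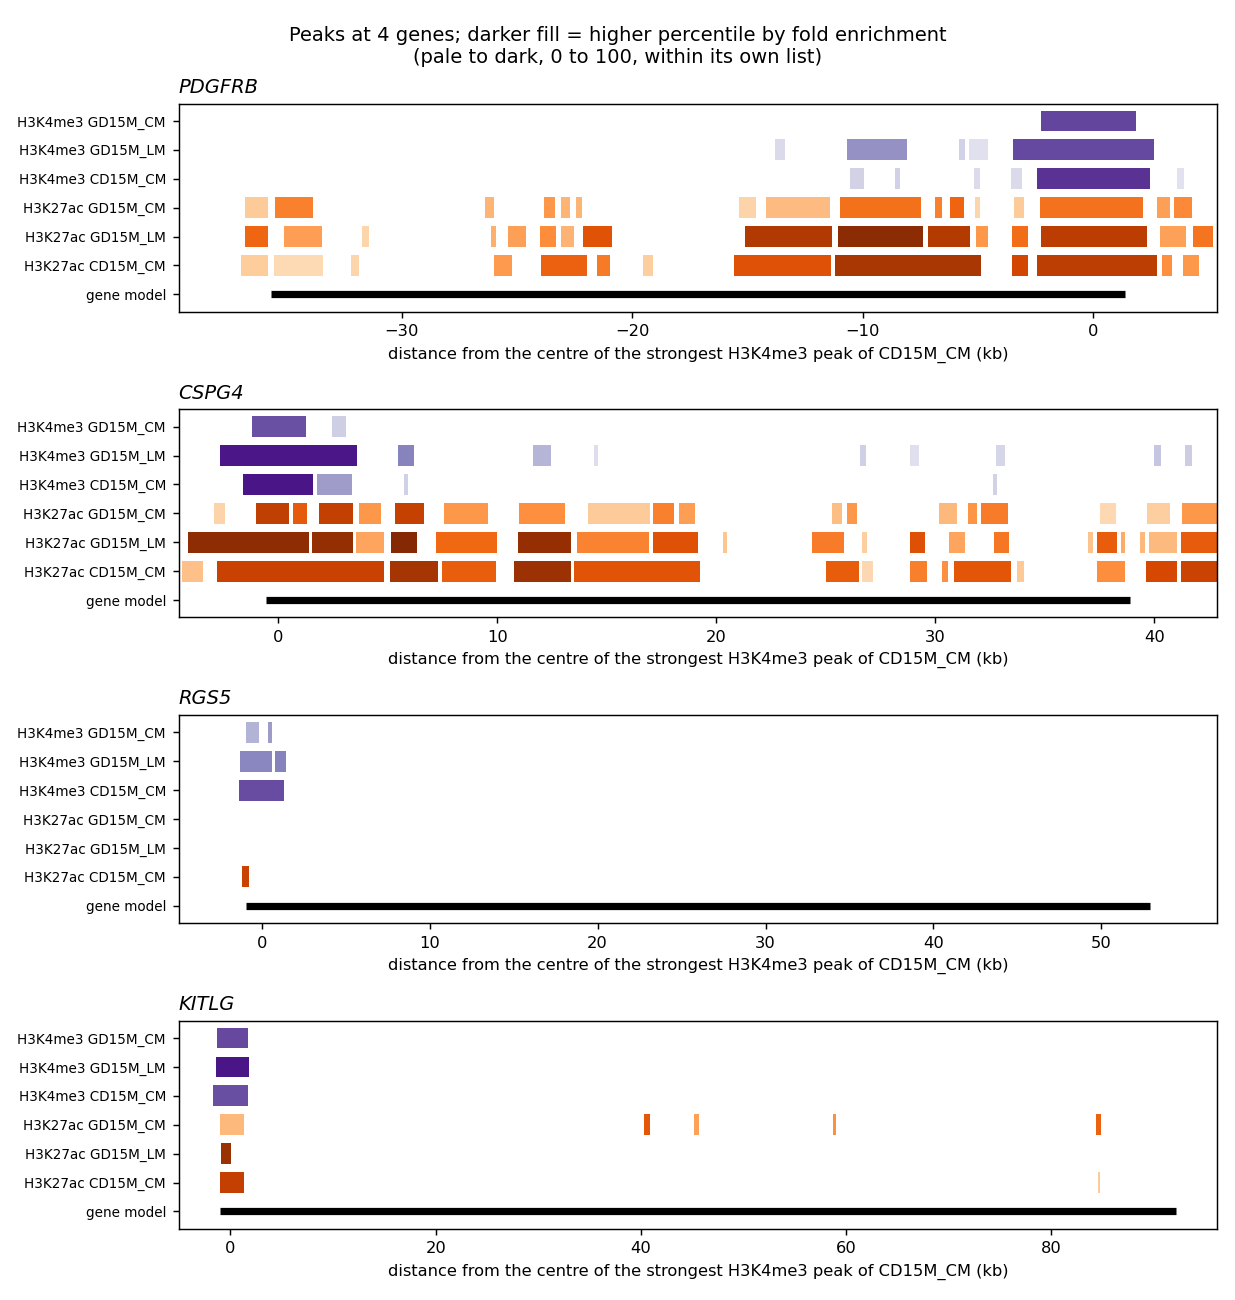
Peaks called in the 6 pooled lists at *PDGFRB*, *CSPG4*, *RGS5* and *KITLG*, by distance in kb from the centre of the strongest H3K4me3 peak of CD15M_CM, with the gene model in black and darker fill for a higher percentile. H3K27ac extended over most of the marked gene end of *PDGFRB* and *CSPG4*, while at *RGS5* the only H3K27ac peak was 434 bp long and belonged to CD15M_CM.

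For comparison, only 10% of the genes of at least 20 kb had more than 14.9%, 10.8% and 16.1% of their window covered by H3K27ac in GD15M_CM, GD15M_LM and CD15M_CM. *PDGFRB* and *CSPG4* were far past these values in each list. *CD34* passed them in GD15M_CM at 19.5% and in GD15M_LM at 11.7% but not in CD15M_CM at 15.7%, and *NOTCH3* passed in GD15M_CM alone at 15.4%. The other 5 genes had between 0 and 7.00% of their window covered. For H3K4me3 the same limit was 11.5%, 11.9% and 12.6%, and only *PDGFRA* and *NOTCH3* exceeded it in all 3 lists.

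**Figure D3:**
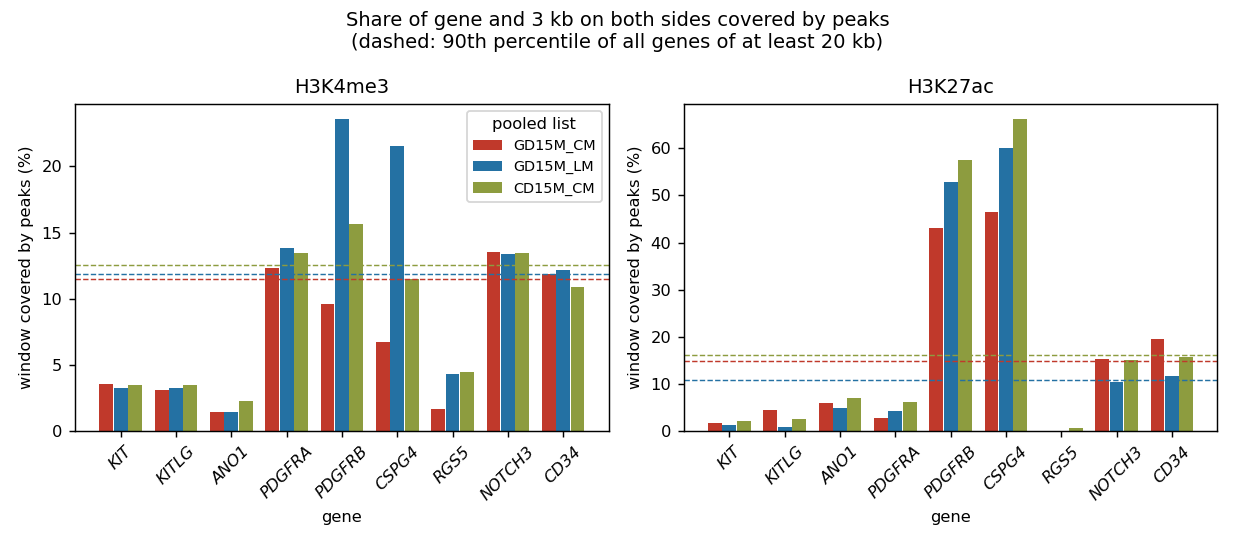
Share of each gene with its 3 kb flanks that was covered by peaks (y axis, %), for H3K4me3 on the left and H3K27ac on the right, with 1 bar per pooled list and no error bar. Dashed lines give the 90th percentile of the 12155 genes of at least 20 kb, which *PDGFRB* and *CSPG4* exceeded for H3K27ac in all 3 lists.

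*RGS5* (chromosome 4, 87286953 to 87340816), which shortens G protein signalling in pericytes, had the widest range over the lists for both marks. The strongest H3K4me3 peak at its low end had a fold enrichment of 3.96 in GD15M_CM, 5.74 in GD15M_LM and 13.0 in CD15M_CM, at percentiles of 37.2, 50.3 and 70.7. CD15M_CM was clearly highest. The mark was called there as 1 peak of 2658 bp, and in GD15M_CM as 2 peaks of 775 and 232 bp and in GD15M_LM as 2 peaks of 1912 and 645 bp. The only H3K27ac peak of the gene, of CD15M_CM, lay over the low end from 87286704 to 87287137 and had a fold enrichment of 4.24 at a percentile of 73.4. A list without a peak does not show that the mark was absent, only that no peak was called at the authors' threshold. All 5 called differences of *RGS5*, 3 for H3K4me3 and 2 for H3K27ac, kept their direction and size of at least 10 points under other rankings. These ranked peaks by −log10 p, took equal numbers of top peaks or joined peaks less than 1 kb apart. The 2 for H3K27ac set a peak against none, and these settings cannot add a peak to a list. Among strict peaks (fold enrichment from 5 and −log10 p from 10 upward), *RGS5* had no H3K27ac in any list. Its H3K4me3 percentiles were then 0 in GD15M_CM, 2.49 in GD15M_LM and 35.4 in CD15M_CM.

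*NOTCH3* (chromosome 2, 62364507 to 62402348), the Notch receptor of vascular smooth muscle, was the gene with the highest H3K4me3 percentile in GD15M_CM. The peak at its low end had a fold enrichment of 18.4 in GD15M_CM, 21.9 in GD15M_LM and 17.7 in CD15M_CM, at percentiles of 86.5, 84.0 and 78.7. No pair of lists differed by 10 points. A second peak, 4.85 to 4.93 kb inside the gene, was also called in all 3 lists, with a fold enrichment of 10.0, 6.35 and 6.78. H3K27ac followed another order at the same end, with a fold enrichment of 4.35, 3.65 and 5.27 at percentiles of 76.1, 44.5 and 89.2. GD15M_LM was lowest, 31.6 points below GD15M_CM and 44.7 below CD15M_CM. This holds for the gene and 3 kb beside it: with 10 kb on both sides the percentiles were 85.3, 86.3 and 89.2, within 10 points of each other. The high end of *NOTCH3* overlaps *LOC100628051*, and the single peak called there was a 332 bp H3K27ac peak of CD15M_CM.

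*CD34* (chromosome 9, 134912793 to 134937763) encodes a sialomucin of telocytes, fibroblasts and endothelium. Its H3K4me3 peak at the low end had a fold enrichment of 8.51 in GD15M_CM, 13.3 in GD15M_LM and 13.2 in CD15M_CM, at percentiles of 64.5, 67.4 and 71.0. The percentiles were within 10 points of each other. H3K27ac covered little of this peak, 21.9%, 21.8% and 16.0%. The strongest H3K27ac peak had a fold enrichment of 3.63, 4.47 and 4.42, at percentiles of 56.1, 68.1 and 77.1, and was at the high end in GD15M_CM, at the low end in GD15M_LM and 8.67 kb inside the gene in CD15M_CM. GD15M_CM had 13 H3K27ac peaks at *CD34*, 200 to 1258 bp long, against 4 in GD15M_LM and 6 in CD15M_CM. The difference between GD15M_LM and GD15M_CM, 12.0 points, became −2.58 points when peaks were ranked by −log10 p.

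The comparisons between the lists were then counted over the 9 genes. Between the layers of pregnant gilts, H3K4me3 was at least 10 points higher in GD15M_LM for *KITLG*, *CSPG4* and *RGS5*, which is 3 of 9 genes beside 20.2% of the 17636 genes with a peak in either list. It was higher in GD15M_CM for 0 of the 9, beside 20.9%. H3K27ac was higher in GD15M_LM for *KITLG*, *ANO1*, *PDGFRB*, *CSPG4* and *CD34*, 5 of 9 beside 22.5% of 18567 genes. Ranked by −log10 p, it was 2 of 9, *KITLG* and *PDGFRB*. It was higher in GD15M_CM for *KIT* and *NOTCH3*, beside 33.8%. The difference at *KIT*, −10.2 points as GD15M_LM minus GD15M_CM, turned to 8.48 points when equal numbers of top peaks were taken from the lists. The median difference of GD15M_LM minus GD15M_CM in H3K27ac was 12.0 points over the 9 genes and −2.30 points over all genes.

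Between pregnant and cyclic circular muscle, H3K4me3 was at least 10 points higher in CD15M_CM for *PDGFRA*, *CSPG4* and *RGS5*, 3 of 9 beside 23.9% of 17645 genes, and higher in GD15M_CM for 0 of 9, beside 12.4%. For H3K27ac, 8 of the 9 genes, all but *PDGFRA*, were at least 10 points higher in CD15M_CM, beside 27.4% of 18998 genes. The exception, *PDGFRA*, was the 1 gene higher in GD15M_CM, beside 25.5%. The median difference of CD15M_CM minus GD15M_CM was 18.3 points over the 9 genes and 0.154 points over all genes. Ranked by −log10 p, the number of genes higher in CD15M_CM was 5. With a window of 10 kb, *ANO1*, *CSPG4* and *NOTCH3* were higher in CD15M_CM by less than 10 points. These counts take the strongest H3K27ac peak in the window, whose place could differ between the lists. Over the strongest H3K4me3 peak, *KIT*, *KITLG*, *PDGFRB*, *RGS5* and *NOTCH3* were still at least 10 points higher in CD15M_CM. *ANO1* was lower there, at 35.98 against 48.4 in GD15M_CM, as was *CSPG4*, at 73.2 against 76.1. *CD34* at 53.3 against 44.9 and *PDGFRA* at 39.7 against 39.6 were higher by less than 10 points. The comparisons of GD15M_CM with GD15M_LM and with CD15M_CM share a list, so they are not independent of each other. By its own test of regions, the paper reports far fewer H3K27ac regions that differ between GD15M_CM and CD15M_CM than between GD15M_CM and GD15M_LM.

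Between GD15M_LM and CD15M_CM, which differ in both layer and reproductive state, H3K4me3 was higher in CD15M_CM for *KIT*, *PDGFRA* and *RGS5*, beside 24.7% of 17800 genes, and in GD15M_LM for *KITLG*, beside 12.8%. H3K27ac was higher in CD15M_CM for *KIT*, *RGS5* and *NOTCH3*, 3 of 9 beside 34.5% of 18611 genes. It was higher in GD15M_LM for *KITLG* and *PDGFRB*, beside 20.9%. Ranked by −log10 p, these H3K27ac counts were 5 and 0, and with equal numbers of top peaks 4 genes were higher in GD15M_LM.

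Of the 54 differences between lists, 31 reached 10 points, and 16 of the 31 kept their direction and size under ranking by −log10 p, equal numbers of top peaks and joined peaks alike. For H3K4me3 these were 5, the 3 of *RGS5* and those of *CSPG4* against GD15M_CM. For H3K27ac they were 11, namely the 2 of *RGS5*, both against GD15M_CM of *PDGFRB* and of *KITLG*, both against GD15M_LM of *NOTCH3*, that of *KIT* between CD15M_CM and GD15M_LM, and those of *ANO1* and *CD34* between CD15M_CM and GD15M_CM. Other windows, strict peaks and H3K27ac over the strongest H3K4me3 peak were not part of this count. With a window of 10 kb, both differences of *NOTCH3* fell below 10 points. So did that of *ANO1*, at 88.9 in GD15M_CM and 94.9 in CD15M_CM. With only the 3 kb around either gene end, the differences of *ANO1* and *CD34* turned. *ANO1* was then at 65.1 in GD15M_CM and 49.6 in CD15M_CM, and *CD34* at 56.1 and 53.3.

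**Figure D4:**
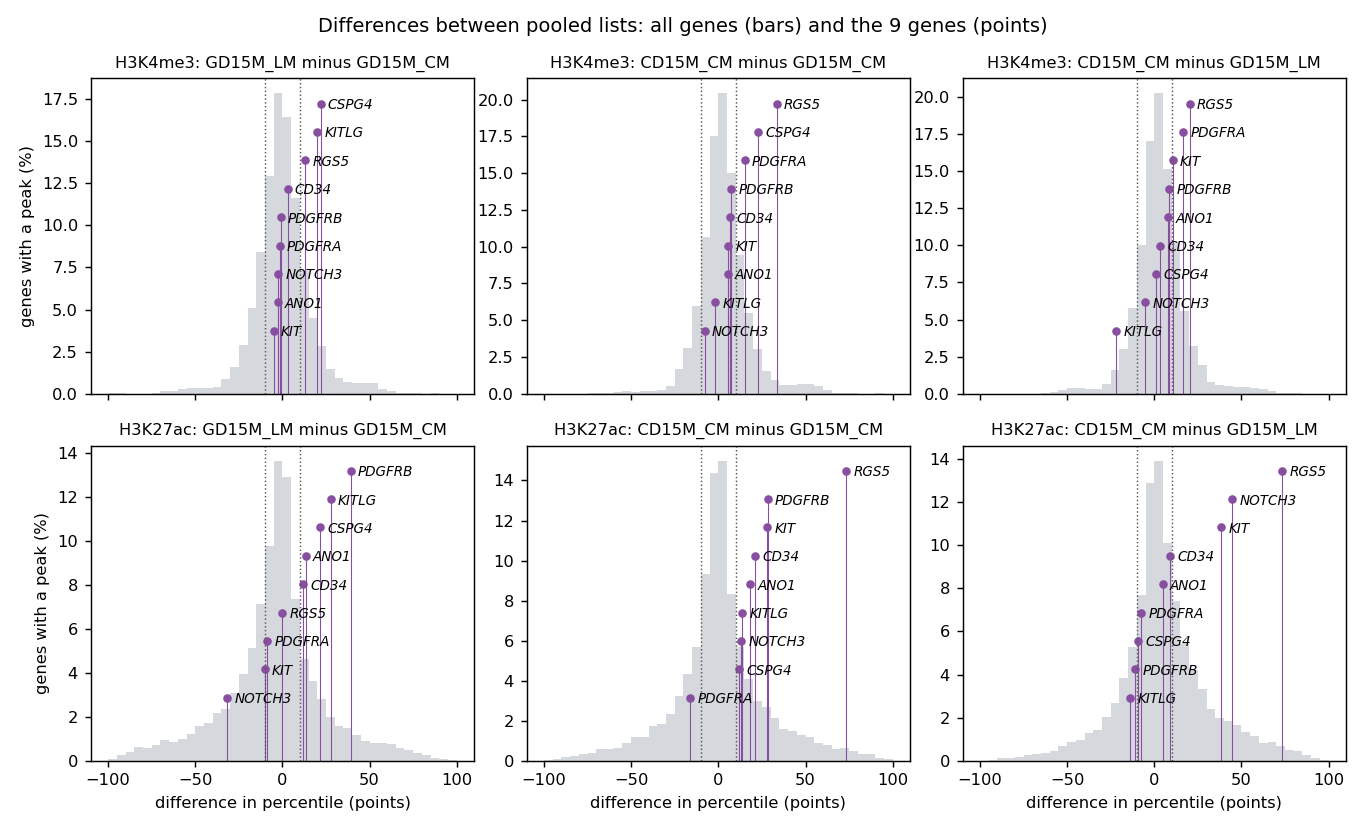
Difference in percentile between pooled lists (x axis, points) for all genes with a peak in either list (grey bars, % of genes) and for the 9 genes (labelled points, drawn at stepped heights that have no meaning), for both marks and 3 pairs of lists. Dotted lines mark 10 points in either direction, and in H3K27ac of CD15M_CM minus GD15M_CM 8 of the 9 points lie to the right of them.

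Peaks of different lists that overlapped were joined to regions. The 9 genes held 27 H3K4me3 regions, of which 11 were called in all 3 lists, 40.7% beside 45.9% over all genes. Those in only 1 list numbered 8 for GD15M_LM, 4 for CD15M_CM and 0 for GD15M_CM, and 6 of the 8 of GD15M_LM were at *CSPG4*. Over all genes such regions numbered 4423, 6394 and 3786 of 38332 in the same order. Of the 90 H3K27ac regions 35 were in all 3 lists, 38.9% beside 33.3%. Here GD15M_CM had the most regions of its own, 22, of which 9 were at *ANO1* and 7 at *CD34*, against 7 for GD15M_LM and 16 for CD15M_CM. GD15M_CM also had the most over all genes, with 18054 of 85102 regions against 4397 for GD15M_LM and 16560 for CD15M_CM. *PDGFRB* and *CSPG4* shared most, with 9 of 12 and 9 of 15 H3K27ac regions in all 3 lists.

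The strongest H3K4me3 peak was overlapped by H3K27ac in 8, 8 and 9 of the 9 genes, beside 92.3%, 92.0% and 92.8% of all genes with an H3K4me3 peak. H3K27ac covered 100%, 85.5% and 99.6% of the peak at *PDGFRB* and 87.7%, 95.2% and 100% at *CSPG4*. At *NOTCH3* it covered 96.5%, 53.1% and 79.5%. It was 50.9%, 29.1% and 54.6% at *KIT* and 76.3%, 29.0% and 65.6% at *KITLG*, narrowest in GD15M_LM at both genes.

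Other genes of the same pathways and cells were placed beside these 9. The PDGF ligands *PDGFA*, *PDGFC* and *PDGFD* all had an H3K4me3 peak in every list. *PDGFD*, a ligand of *PDGFRB*, differed most, with H3K4me3 percentiles of 59.4, 68.0 and 79.2 and H3K27ac percentiles of 0, 39.3 and 87.9 in GD15M_CM, GD15M_LM and CD15M_CM. *PDGFA* had 91.3, 88.7 and 80.8 for H3K4me3, and *PDGFC*, a ligand of *PDGFRA*, had 88.2, 95.3 and 99.7 for H3K27ac. The order of *PDGFD* was thus the order of H3K4me3 at *RGS5*, lowest in GD15M_CM and highest in CD15M_CM.

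Of the other Notch receptors, ligands and targets, 9 of 11 were placed, and all 9 had both marks in every list. In H3K27ac 5 of the 9 were at least 10 points higher in GD15M_CM than in GD15M_LM and 0 were lower, beside 33.8% and 22.5% of all genes. For H3K4me3 the split was 3 against 2, beside 20.9% and 20.2%. The Notch ligand *DLL4* had the widest range, with H3K27ac percentiles of 90.2, 21.8 and 74.0. The target *HEY1* had 92.4, 43.6 and 35.6, the target *HEY2* had 70.1, 52.6 and 82.4, and the receptor *NOTCH2* was near the top at 95.9, 99.7 and 99.7. *DLL4* is a ligand made by endothelium.

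Of 10 other mural genes 8 were placed, and 7, 7 and 8 had H3K4me3 and 6, 6 and 8 had H3K27ac. For H3K4me3, 5 of the 8 were at least 10 points higher in GD15M_LM than in GD15M_CM and 0 were lower, beside 20.2% and 20.9% of all genes, but for H3K27ac 2 were higher and 3 lower, beside 22.5% and 33.8%. Between the circular lists, 3 were at least 10 points above GD15M_CM in CD15M_CM for H3K4me3 and 4 for H3K27ac, beside 23.9% and 27.4%, and 0 were below for either mark. *KCNJ8*, a subunit of the ATP-sensitive potassium channel of pericytes, had H3K4me3 percentiles of 60.7, 92.3 and 69.8 and H3K27ac percentiles of 2.20, 84.9 and 92.9. *MCAM*, an adhesion molecule of mural cells and endothelium, was high for H3K27ac in all lists, at 93.8, 93.6 and 91.6. *HIGD1B* had H3K4me3 percentiles of 82.9, 99.4 and 99.0, and *FOXF2*, a forkhead factor of brain pericytes, had a peak only in CD15M_CM, at 45.7 for H3K4me3 and 61.2 for H3K27ac. GD15M_CM was the lowest list for H3K4me3 at both *KCNJ8* and *HIGD1B*, as it was at *CSPG4* and *RGS5*, but not at every other mural gene. This order is not particular to mural genes, as the median of the smooth muscle genes was also lowest there, at 80.0, 89.0 and 85.6.

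Of 5 other genes of interstitial cells of Cajal, 4, 5 and 5 had H3K4me3 and 2, 4 and 4 had H3K27ac. *ETV1*, a transcription factor of these cells in the gut, was the strongest and was highest in GD15M_CM, with H3K27ac percentiles of 98.5, 87.2 and 53.1. *THBS4* had 0, 55.0 and 73.4, and *PRKCQ* had no H3K27ac peak in any list. The pacemaker channel gene *HCN4* had no H3K4me3 peak in GD15M_CM and percentiles of 51.1 and 56.0 in the other lists. The list therefore had no common direction.

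Of 10 fibroblast genes, 8, 9 and 9 had H3K4me3 and 9, 7 and 10 had H3K27ac. For H3K4me3, 4 were at least 10 points higher in GD15M_LM than in GD15M_CM and 0 lower, beside 20.2% and 20.9% of all genes, and 5 were higher in GD15M_LM than in CD15M_CM and 0 lower, beside 12.8% and 24.7%. For H3K27ac, 1 was higher in GD15M_LM than in GD15M_CM and 3 lower, beside 22.5% and 33.8%, so the 3 of 10 lay near the share of all genes. Against CD15M_CM, 1 was higher in GD15M_LM and 5 lower, beside 20.9% and 34.5%. The collagen genes were strongly marked, *COL1A2* at 91.9, 95.6 and 77.0 for H3K4me3 and *COL1A1* at 96.8, 95.4 and 98.3 for H3K27ac. The small proteoglycan gene *LUM* had H3K27ac only in CD15M_CM, at 71.9, and *PI16* had no H3K4me3 peak in any list. Windows of these lists can take in peaks of a neighbouring gene.

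The labelled tissue and its other cells were checked with marker genes. All 10 smooth muscle genes had both marks in every list, with median H3K4me3 percentiles of 80.0, 89.0 and 85.6. Their H3K27ac medians were 87.4, 93.5 and 94.2, so GD15M_CM was lowest for this mark too. In H3K27ac 3 of the 10 were at least 10 points higher in CD15M_CM than in GD15M_CM and 0 lower. Of all genes 27.4% were higher and 25.5% lower. All 6 genes of uterine epithelium were at least 10 points higher in GD15M_CM than in GD15M_LM for both marks. Of all genes with a peak in either list, 20.9% were so for H3K4me3 and 33.8% for H3K27ac. The epithelial H3K4me3 percentiles were 75.1 to 81.6 in GD15M_CM, 12.9 to 59.4 in GD15M_LM and 71.9 to 87.4 in CD15M_CM. Those of H3K27ac were 57.9 to 84.1, 0 to 42.1 and 4.75 to 84.9. The epithelial genes thus differed between the lists, and their part in the differences at the 9 genes was not tested. For *CD34* and the vessels, 7 of 8 endothelial genes had H3K4me3 in every list, *EMCN* being at 0, with medians of 61.3, 62.4 and 66.4. For *KIT*, 5 of 6 mast cell genes had no H3K4me3 peak in any list, and only *GATA2* had one. H3K27ac was called at 3, 1 and 3 of the 6 in GD15M_CM, GD15M_LM and CD15M_CM, with *CPA3*, *MS4A2* and *FCER1A* at 0 for both marks. The melanocyte genes *DCT* and *TYR* were at 0 throughout for both marks. All 5 placed T cell genes had H3K4me3 in every list, and 3, 1 and 1 of them had H3K27ac. All 6 macrophage genes had H3K4me3 in GD15M_LM and CD15M_CM and 5 in GD15M_CM, and 5 had H3K27ac in each list. Of 4 mesothelial genes, 3, 2 and 3 had H3K4me3 and 3, 4 and 3 had H3K27ac.

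Lastly, the genes whose 6 percentiles, from 3 lists and 2 marks, were nearest to those of each gene were sought among 15845 protein-coding genes by Euclidean distance. *CSPG4* had the closest neighbours, *SRRM3* at 3.73 points and *ADCY5*, an adenylyl cyclase gene, at 4.40, and 1446 genes lay within 25 points of it. *RGS5* had the fewest, 16, with *SP5* at 6.86 points and *KCNE1* at 16.2. *KIT* was nearest to *POC5* at 12.2 points, and 65 genes lay within 25 points. *KITLG* had *PDK3* at 8.92 and *FAT4* at 9.35, *PDGFRB* had *FAM110C* at 8.33, *ANO1* had *RGCC* at 7.32 and *GPR179* at 7.78, and *PDGFRA* had *NAPRT* at 10.4. *NOTCH3* was nearest to *C2H19orf60*, with *LOC100516820* next at 11.3, and *CD34* to *LOC110257484* at 6.91 and *CEP131* at 7.41. These distances rest on 6 values per gene and describe likeness of rank only.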

How the data were processed

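For the 3 groups, CUT&Tag libraries of both marks from 2 gilts each were used, beside 6 IgG libraries. The authors aligned reads with BWA (0.7.17-r1188) to the Sscrofa11.1 genome and discarded duplicates and alignments of mapping quality below 25, for which the tools named are Picard (2.8.3) and SAMtools (1.9). Peaks were called on the pooled replicates against IgG, using MACS2 (2.2.6). Names and versions are from the methods and the submitters' processing notes. The deposited fold enrichment is a ratio of mark over IgG as the authors' MACS2 run wrote it, and how both were scaled is not given in the sources used here. The deposited −log10 p value of each peak served only to rank or filter peaks in its own list. The header of this column and of a −log10 q column was unreadable, the former was identified by the column order MACS2 writes, and the latter was not used for any result. Depth per peak is not in the lists, so no counting interval could be given.

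Groups came from the sample labels. Gene spans were those of RefSeq on Sscrofa11.1 (28210 genes on the chromosomes), without strand. Peaks overlapping a gene with 3 kb on both sides were taken with Python 3.11.15, pandas 2.3.3 and NumPy 2.4.6, and figures were drawn with Matplotlib 3.10.9. The steps that assign and rank peaks were tested on simulated data and differed from a direct count in 0 of 800 genes. Each list pools both gilts, so no test was run.

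The 9 genes, the related lists and the markers were chosen with earlier results of these data known. Named are the 9 genes, the nearest 1 or 2 of the 2 most alike protein-coding genes of each, genes beside them, and up to 4 genes per related list by highest or lowest mean percentile or widest range. *PDGFB*, *NOTCH1*, *JAG2*, *COX4I2*, *GUCY1B1*, *ZAP70*, *MSLN* and *S100B* had no placed RefSeq gene of that symbol and were not analysed here. Another of the marker genes is not reported here. Alternatives were strict peaks (fold enrichment from 5 and −log10 p from 10 upward), windows of 1 kb and 10 kb or 3 kb around either gene end, peak centres, ranking by −log10 p, equal numbers of top peaks, peaks under 1 kb apart joined, and a stricter overlap for shared regions (0.5 of the shorter peak). A protein-coding background and H3K27ac over the strongest H3K4me3 peak were added after seeing the data.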

Additional observations from a re-analysis of the deposited data

How the results depend on the processing

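No paired analysis was possible because peaks were called on reads of 2 gilts combined, and for the same reason no gilt could be left out. Values are in the order GD15M_CM, GD15M_LM, CD15M_CM. Strict peaks left the 9 genes with H3K27ac in 0, 4 (*KITLG*, *ANO1*, *PDGFRB*, *CSPG4*) and 2 (*CSPG4*, *NOTCH3*), with median percentiles of 33.4, 37.4 and 50.0 for H3K4me3 and 0, 0 and 0 for H3K27ac. A window of 10 kb gave H3K4me3 medians of 71.6, 71.7 and 78.7 and an H3K27ac median of 86.3 in GD15M_LM. Peaks within 3 kb of either gene end gave H3K27ac medians of 49.0, 47.1 and 73.2. Ranking by −log10 p gave medians of 70.3, 70.3 and 75.8 for H3K4me3 and 71.4, 72.6 and 85.0 for H3K27ac. Equal numbers of top peaks gave H3K4me3 medians of 67.1 in GD15M_CM and 74.2 in CD15M_CM and H3K27ac medians of 38.6 and 67.1 there. Among counts of genes at least 10 points higher, ranking by −log10 p gave 1 for H3K4me3 in GD15M_CM over GD15M_LM and 0 in GD15M_LM over CD15M_CM. For H3K27ac it gave 2 in GD15M_LM over GD15M_CM, 5 in CD15M_CM over GD15M_CM, 0 in the opposite direction, 5 in CD15M_CM over GD15M_LM and 0 in the opposite direction. Joined peaks gave 5 for H3K4me3 in CD15M_CM over GD15M_CM, 1 in the opposite direction, and 1 for H3K27ac in GD15M_CM over GD15M_LM. Equal numbers of top peaks gave 1 for the same H3K27ac comparison and 4 in GD15M_LM over CD15M_CM. Among single genes 2 differences in H3K27ac between GD15M_LM and GD15M_CM reversed, that of *KIT* to 8.48 points with equal numbers of top peaks and that of *CD34* to −2.58 by −log10 p. The cause of these changes was not tested. With protein-coding genes only, 73.7%, 74.6% and 75.4% had an H3K4me3 peak and 73.9%, 73.1% and 75.8% an H3K27ac peak. The windows of 1 kb and the peak centres moved none of the counts or medians named here beyond the limits set for a change.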

Other observations

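*PDGFRA* and *KIT* lie on chromosome 8 with 374.9 kb between the windows that were searched. No H3K4me3 peak was called in this interval in any list. H3K27ac had 5 peaks over 1.95 kb in GD15M_CM, 1 peak over 0.342 kb in GD15M_LM and 2 peaks over 0.922 kb in CD15M_CM. The strongest had a fold enrichment of 4.38 at a percentile of 77.6 in GD15M_CM, 2.79 at 12.2 in GD15M_LM and 4.13 at 70.3 in CD15M_CM. GD15M_LM thus had the fewest called H3K27ac peaks there, and its H3K27ac list was also the shortest, at 57010 peaks.

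Over all 9 genes the peaks were 15, 24 and 23 for H3K4me3 and 85, 65 and 67 for H3K27ac in GD15M_CM, GD15M_LM and CD15M_CM. The covered length did not follow the number of H3K27ac peaks, being 70.8, 71.4 and 87.5 kb. For H3K4me3 it was 34.3, 49.4 and 42.9 kb. Of the 85 H3K27ac peaks of GD15M_CM 59 were inside the genes, more than 3 kb from either end, and of the 15 H3K4me3 peaks 3 were.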
